A study of Mus musculus with 2 samples.

Results

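The genes described here are 57 genes that act in mitosis, chosen by name: a gene belonged when its symbol was on a fixed list of mitotic cyclins, kinases, kinetochore proteins, kinesins, condensins and related factors. All 57 were listed in both libraries, among 22350 gene symbols in all, each on a single row, and all had a mean of at least 1 FPKM. FPKM counts fragments scaled to transcript length and to the size of the library, so levels can be compared between genes. The series held 1 library from wild type C57BL/6 mice and 1 from Pkm2-/- mice of the same strain. Both were messenger RNA libraries of colon epithelial cells taken after 3 days of 2.5% dextran sulfate sodium, an agent that damages the colon lining, so the treatment was common to both and no untreated colon was compared. The sources used here do not say how the Pkm2 allele was made, in which cells it was lost or how many animals entered a library.

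Mitosis separates copied chromosomes into 2 daughter nuclei. Cyclin A2 and the B cyclins activate the kinase Cdk1, condensins compact the chromosomes, and kinesins and bundling proteins build the spindle. Kinetochores join chromosomes to spindle microtubules, the spindle checkpoint delays anaphase until all are attached, and the anaphase-promoting complex then marks cyclins and securin for destruction. In the colon these genes are used mainly by the dividing cells of the lower crypt, and most of them are transcribed in the late part of the cell cycle and repressed in cells that have stopped dividing. The repressor and activator complexes that do this bind a short promoter element named CHR (cell cycle genes homology region) and act together with factor NF-Y at CCAAT boxes.

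Pkm, the gene the knockout targets, was at 281 FPKM in wild type cells and 86.2 FPKM in the knockout, a gene-level value that covers both splice forms. The lowest values in each file corresponded to about 18800000 and 21500000 fragments, so that a mitosis gene rested on between 111 and 8537 fragments in a library. Intervals given with a fold are 95% Clopper-Pearson intervals on these fragments and cover counting error only. With 1 library per genotype no test of any difference was possible, and everything below describes these 2 libraries. Epithelial markers defined both: Epcam, Krt8, Krt18, Krt19, Cdh1, Cdx2 and Lgals4 summed to 5775 and 6695 FPKM.

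Nearly all mitosis genes were higher in the knockout library by a similar, moderate factor. The log2 ratio, log2((knockout FPKM + 1)/(wild type FPKM + 1)), had a median of 0.60 over the 57 genes, against 0.06 over the 12429 genes that averaged 1 FPKM or more. It was above 0 for 56 of the 57 mitosis genes, where 58.8% of all those genes had a ratio above 0. Counts by size use this same ratio, with its added 1 FPKM. At least 1.5-fold higher were 32 of the 57, against 4.46% of all genes, while none reached 2-fold, which 1.42% of all genes did. None was at least 1.5-fold lower, a size that 5.29% of all genes showed. The counting interval of the fold lay above 1 for 53 mitosis genes, against 38.4% of 12396 genes with an interval, it held 1 for Ttk, Ndc80 and Kif2c, and it lay below 1 for Pttg1. In the summed level the 57 genes came to 650.3 FPKM in wild type cells and 992 FPKM in the knockout, a 1.53-fold difference. More dividing cells and more of these transcripts per cell cannot be told apart in RNA from pooled cells.

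The count at 1.5-fold depended on the scale because the typical ratio lay close to that threshold. With the libraries brought to equal medians it was 19, and with equal sums of the 7 epithelial markers it was 3, with 2.37% of all genes. That last scaling moved the median of all genes to -0.13 and of the mitosis genes to 0.40. A single factor shifts all log2 ratios by nearly the same amount. The gap between both medians, 0.53 as against 0.54 on the deposited scale, could therefore hardly change. Under equal medians Ttk also had a ratio below 0, and under equal epithelial sums Ttk, Ndc80 and Kif2c did.

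**Figure D1:**
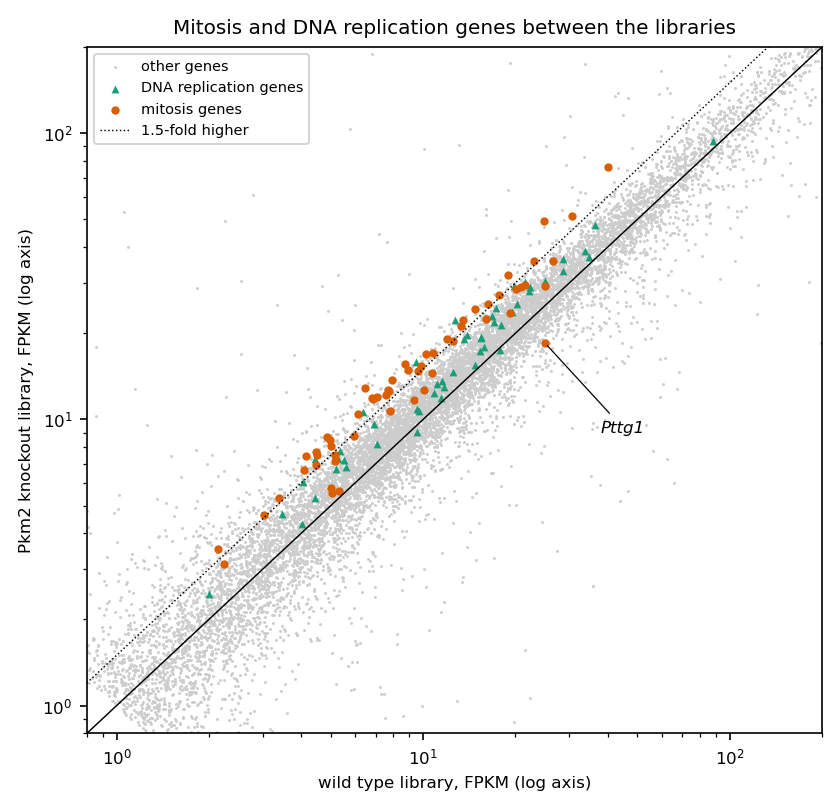
Level of each gene in the wild type (horizontal) and knockout library (vertical), in FPKM on log axes, with 1 point per gene. The solid line marks equal levels and the dotted line 1.5-fold higher, and 56 of 57 mitosis genes (orange circles) lie above the solid line, many of them near the dotted one, while Pttg1 lies below.

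Levels within the list spanned a wider range than the folds between libraries. In the wild type library levels ran from 2.14 FPKM for Aspm to 40.1 FPKM for Top2a, and in the knockout library from 3.12 FPKM for Cdc25c to 76.0 FPKM for Top2a. Of the 10 most abundant members of each library, 9 were shared. The plain fold of the knockout over the wild type library lay between 1.4 and 1.8 for 37 of the 57 genes. Across the 57 genes, which share both libraries and are not independent, the log2 ratio had a Pearson r of 0.15 with log2 mean FPKM, 0.21 with transcript length and -0.07 with the GC content of the longest transcript. The genes lie on 16 chromosomes.

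**Figure D2:**
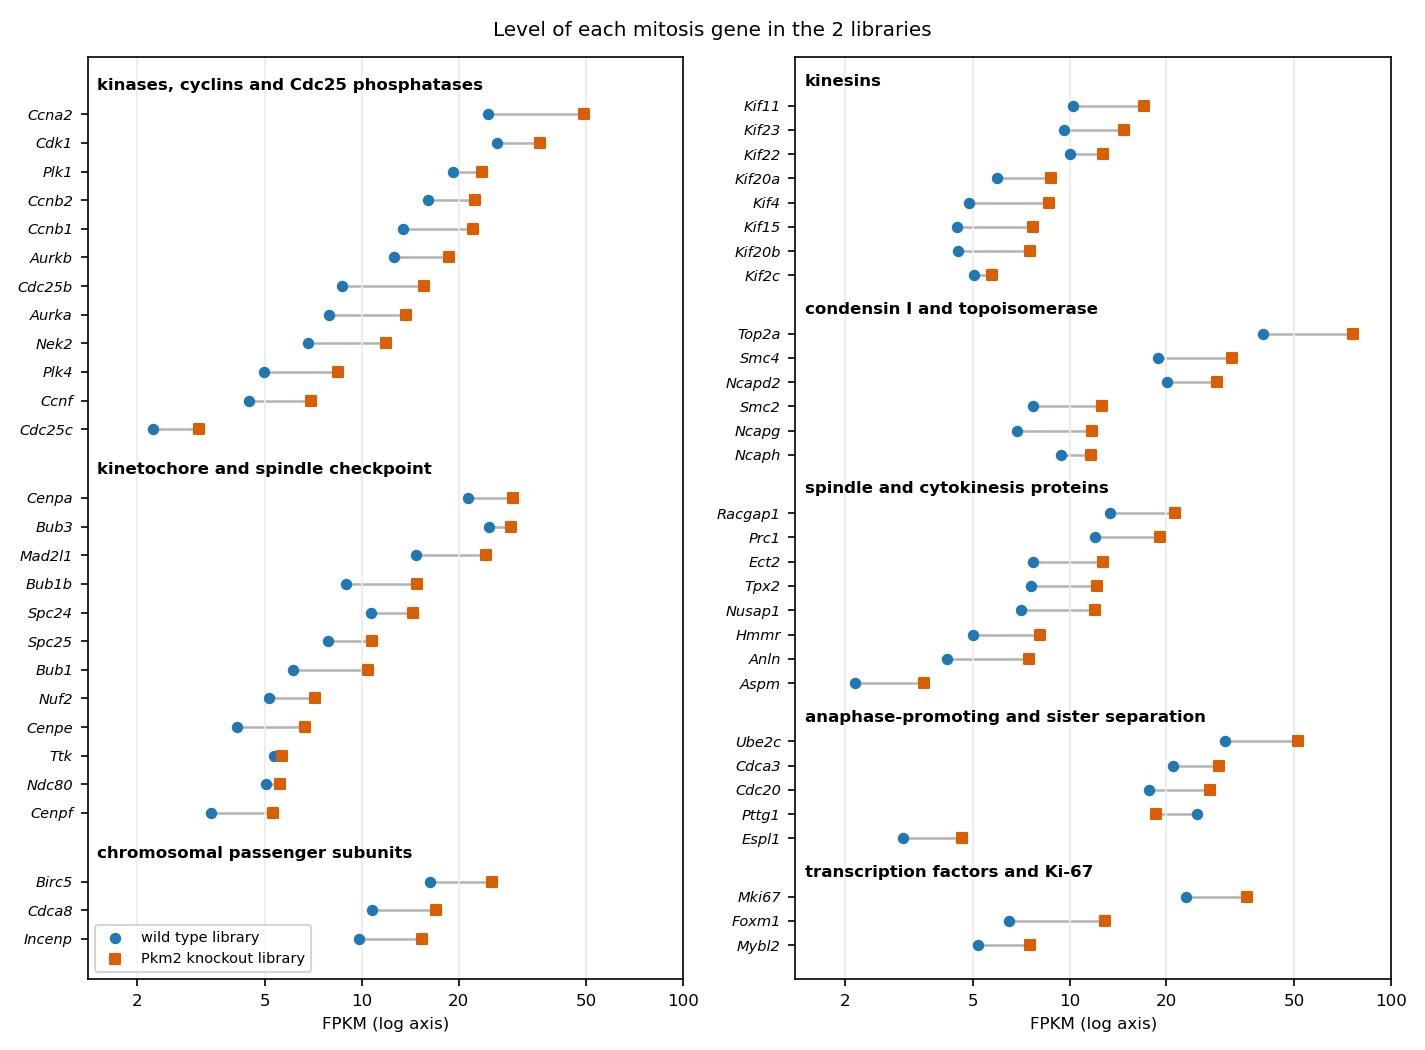
FPKM of each of the 57 genes (log axis) in the wild type (blue circles) and the knockout library (orange squares), grouped by role, with 1 library per genotype and therefore no error bars. The square lies to the right of the circle in every row except Pttg1.

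Promoter letters were compared because the genes had similar ratios. RefSeq promoter windows (GRCm38.p6, from 250 bases before to 50 after a start site) were matched by symbol for 48 of the 57 genes, and Aurkb, Ccna2, Cdc25c, Foxm1, Incenp, Kif20a, Smc4, Spc24 and Tpx2 had no match. Both strands were searched for TTTGAA, a form of the CHR element, and for CCAAT, matches of which can overlap by 1 or 2 bases. The 5 windows below show a kinase and a cyclin with both motifs (Cdk1, chr10:69352863-69353162, minus strand, and Ccnb2, chr9:70421505-70421804, minus strand) and the most abundant member (Top2a, chr11:99024140-99024439, minus strand). They also show a kinesin (Kif11, chr19:37376132-37376431, plus strand) and Pttg1, the only member lower in the knockout library (chr11:43425932-43426231, minus strand). They run 5′ to 3′ along the gene, and capitals mark matches of TTTGAA and of CCAAT on either strand.
Cdk1: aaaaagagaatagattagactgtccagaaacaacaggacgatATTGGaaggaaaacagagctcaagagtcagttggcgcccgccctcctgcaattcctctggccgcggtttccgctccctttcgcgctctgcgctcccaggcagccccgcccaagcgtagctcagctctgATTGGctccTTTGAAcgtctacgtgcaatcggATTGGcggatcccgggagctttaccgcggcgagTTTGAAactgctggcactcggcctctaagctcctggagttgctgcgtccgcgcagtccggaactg
Ccnb2: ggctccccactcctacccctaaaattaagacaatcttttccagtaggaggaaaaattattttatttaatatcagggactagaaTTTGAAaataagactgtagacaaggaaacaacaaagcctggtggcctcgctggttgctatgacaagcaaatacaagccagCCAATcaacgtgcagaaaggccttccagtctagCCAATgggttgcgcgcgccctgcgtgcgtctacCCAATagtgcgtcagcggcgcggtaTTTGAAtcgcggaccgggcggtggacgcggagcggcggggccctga
Top2a: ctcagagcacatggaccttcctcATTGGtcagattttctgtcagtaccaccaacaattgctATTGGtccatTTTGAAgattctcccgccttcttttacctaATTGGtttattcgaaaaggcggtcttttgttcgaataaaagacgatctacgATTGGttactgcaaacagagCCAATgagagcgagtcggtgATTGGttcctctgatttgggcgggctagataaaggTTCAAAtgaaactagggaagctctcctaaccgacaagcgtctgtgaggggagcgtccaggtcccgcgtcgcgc
Kif11: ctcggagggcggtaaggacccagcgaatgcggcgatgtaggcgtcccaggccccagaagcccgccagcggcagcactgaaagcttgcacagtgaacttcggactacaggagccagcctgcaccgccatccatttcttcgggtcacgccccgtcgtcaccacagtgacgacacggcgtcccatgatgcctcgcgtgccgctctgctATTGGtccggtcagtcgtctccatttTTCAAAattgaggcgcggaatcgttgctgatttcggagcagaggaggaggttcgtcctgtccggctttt
Pttg1: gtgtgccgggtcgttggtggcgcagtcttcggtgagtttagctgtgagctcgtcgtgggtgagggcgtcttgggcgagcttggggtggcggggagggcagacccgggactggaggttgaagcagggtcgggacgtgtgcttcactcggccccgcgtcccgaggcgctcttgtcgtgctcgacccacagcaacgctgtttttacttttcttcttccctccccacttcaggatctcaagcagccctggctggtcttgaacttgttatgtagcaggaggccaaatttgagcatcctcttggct

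The Cdk1 window held 2 CHR matches and 3 CCAAT boxes, and that of Ccnb2 held 2 and 3. That of Top2a held 2 and 6, and that of Kif11 1 and 1. The Pttg1 window held neither, but it lies wholly inside the annotated gene (43420250 to 43426251, minus strand). No base before the annotated 5′ end of Pttg1 was therefore searched, whereas the other windows shown cross the annotated 5′ end of their gene. Of the 48 genes with a window, 35 (72.9%) held TTTGAA, against 20.2% of 27025 genes in the table and 14.4% of the 8996 among them that averaged 1 FPKM or more. A match within 50 bases of the start site was present in 32 of the 48 (66.7%), against 5.72% of all genes and 3.92% of those averaging 1 FPKM or more. CCAAT was also found in 35 of the 48 (72.9%), against 41.1% of all genes and 43.1% of those averaging 1 FPKM or more, and 30 (62.5%) held both motifs, against 7.97% and 5.99%. In 10 of the 48 (20.8%) a pair of CCAAT boxes started 30 to 35 bases apart, against 1.85% of all genes, 3.20% of those averaging 1 FPKM or more and 9.76% of the DNA replication genes, as in Ccnb2, where 3 boxes follow at 33 and 33 bases, and Cdk1, where 2 stand 32 bases apart. The TATA box letters TATAAA were in 1 of the 48 windows (2.08%), against 15.7% of all genes, 8.75% of those averaging 1 FPKM or more and 7.32% of the DNA replication genes.

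Among the 48 members with a window, the motifs did not sort the genes by their difference between libraries. The 9 members without a window, among them Ccna2 and Foxm1 at ranks 1 and 3 by log2 ratio, are not in this comparison. The median log2 ratio was 0.58 for the 30 genes with both, 0.63 for the 5 with TTTGAA alone, 0.68 for the 5 with CCAAT alone and 0.54 for the 8 with neither. These 8 were Birc5, Mad2l1, Mybl2, Ncaph, Nuf2, Nusap1, Plk4 and Pttg1, and the window of Pttg1 lies inside its gene. DNA replication genes, which belong to an earlier part of the cycle, held TTTGAA in 8 of 41 windows (19.5%) and CCAAT in 25 of 41 (61.0%). A match is a run of letters and no measure of binding in these cells.

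**Figure D3:**
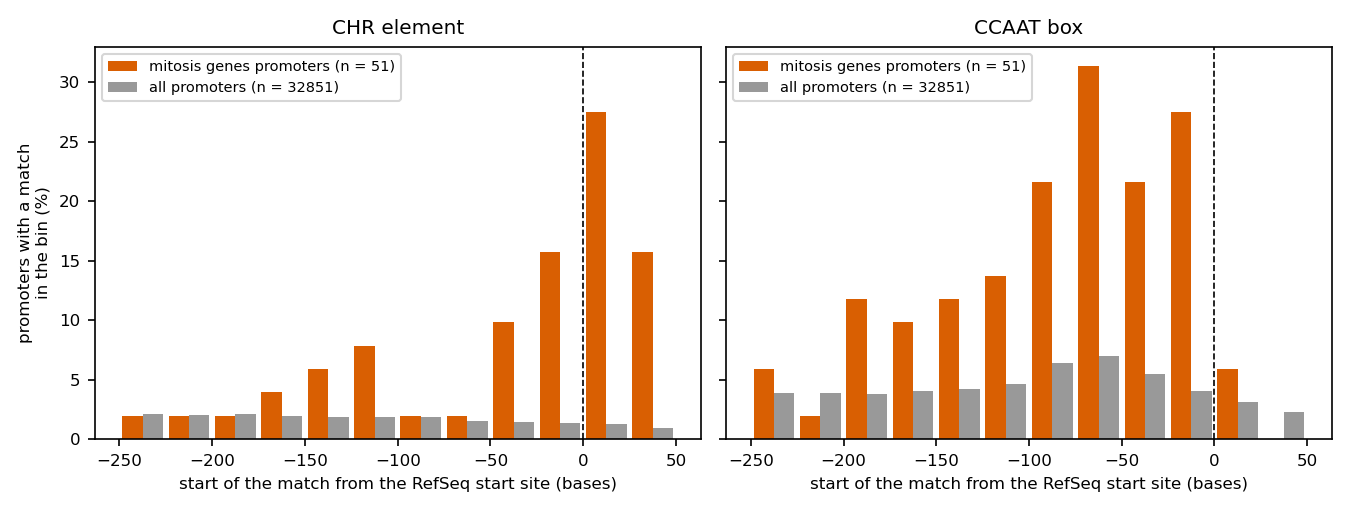
Share of promoters (vertical, percent) with a match of TTTGAA (left) or CCAAT (right) that starts in each bin of 25 bases, by distance from the RefSeq start site (horizontal, bases). Orange bars are the 51 windows of mitosis genes and grey bars all 32851 windows, and the CHR matches of mitosis genes are most frequent in the first 25 bases after the start, at 27.5%.

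Kinases and cyclins drive entry into mitosis. The log2 ratio was above 0 for all 12 genes, its median was 0.61, and 6 genes reached 1.5-fold. Ccna2, which encodes cyclin A2 and acts in S phase and early mitosis (ENSMUSG00000027715, chromosome 3 from 36564865 to 36572150 on GRCm38), was measured at 24.7 FPKM in wild type cells and 49.3 FPKM in the knockout. This was the largest ratio of all 57 genes, a fold of 1.99 (95% counting interval 1.87 to 2.12). Cdk1, the kinase that mitotic cyclins activate, was at 26.4 and 35.9 FPKM, a fold of 1.36 (1.29 to 1.43), so that the Ccna2 to Cdk1 ratio was 0.935 in wild type cells and 1.37 in the knockout. Cyclin B1, Ccnb1, stood at 13.4 and 22.2 FPKM and its relative cyclin B2, Ccnb2, at 16.1 and 22.5 FPKM, so that the ratio of the B cyclins was 0.836 and 0.987. Ccnf, an F-box protein with a cyclin fold, was at 4.47 and 6.94 FPKM.

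The phosphatases that remove the inhibitory phosphates from Cdk1 differed in level. Cdc25b stood at 8.70 and 15.6 FPKM, with the second-ranked ratio of the group, and Cdc25c at 2.25 and 3.12 FPKM. The Aurora kinases were both higher: Aurka, which acts at spindle poles, was at 7.90 and 13.7 FPKM, and Aurkb, the kinase of the chromosomal passenger complex, at 12.6 and 18.7 FPKM. Nek2, a kinase that helps to separate centrosomes, was at 6.79 and 11.9 FPKM. Plk4, which starts the duplication of centrioles, was at 4.95 and 8.46 FPKM. Plk1, a polo kinase needed from mitotic entry to cytokinesis, had the lowest ratio of the group at 19.2 and 23.6 FPKM. Its fold was 1.23 (1.12 to 1.35), beside 1.71 (1.49 to 1.96) for Plk4. Both of these genes share sequence with other genes, and the intervals cover counting error only.

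Kinetochore and checkpoint genes had a median of 0.43, with 4 of 12 at least 1.5-fold higher and 12 of 12 above 0. This was the lowest median of the 8 role groups, but by the mean the anaphase group was lower, at 0.37 against 0.43. Bub1 (6.12 and 10.4 FPKM), Bub1b (8.95 and 14.9 FPKM) and Mad2l1 (14.8 and 24.4 FPKM), which encode checkpoint proteins that hold back anaphase, had log2 ratios of 0.68, 0.67 and 0.68. Bub1 had the highest of the group, with a fold of 1.71 (1.51 to 1.93). Bub3, the partner of Bub1 and Bub1b that also has roles outside mitosis, was at 24.9 and 29.2 FPKM, a fold of 1.17 (1.10 to 1.24), so that the Bub1 to Bub3 ratio was 0.246 in wild type cells and 0.358 in the knockout. Ttk, the checkpoint kinase also named Mps1, was the lowest at 5.32 and 5.64 FPKM, a fold of 1.06 (0.904 to 1.24) whose interval holds 1.

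The Ndc80 complex of 4 subunits is the main microtubule attachment of the kinetochore. Nuf2 stood at 5.15 and 7.13 FPKM, Spc24 at 10.7 and 14.5 FPKM, and Spc25 at 7.82 and 10.7 FPKM, with log2 ratios of 0.40, 0.40 and 0.41. Ndc80 itself, which shares some sequence with other genes, was at 5.03 and 5.54 FPKM, a fold of 1.10 (0.959 to 1.27). The Spc24 to Spc25 ratio was 1.37 in wild type cells and 1.35 in the knockout, while Ndc80 to Nuf2 was 0.975 and 0.777. Cenpa, the histone H3 variant that marks the centromere, stood at 21.5 and 29.5 FPKM. The 2 large coiled-coil proteins of the outer kinetochore, Cenpe, a kinesin motor, and Cenpf, were at 4.10 and 6.65 FPKM and at 3.39 and 5.30 FPKM.

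The chromosomal passenger complex corrects faulty attachments and later guides cytokinesis. Its scaffold Incenp (9.83 and 15.4 FPKM), survivin, Birc5 (16.3 and 25.4 FPKM), and borealin, Cdca8 (10.8 and 17.0 FPKM), had log2 ratios of 0.60, 0.61 and 0.62, so all 3 were at least 1.5-fold higher. The highest fold was that of Cdca8, 1.58 (1.44 to 1.74), and the lowest on the log2 scale that of Incenp, 1.57 (1.42 to 1.73). The Birc5 to Cdca8 ratio was 1.51 and 1.49, and the ratio of Aurkb to Incenp 1.28 and 1.22.

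Kinesins move chromosomes and slide spindle microtubules. The 8 genes had a median log2 ratio of 0.60, with 4 at least 1.5-fold higher. Kif11 (10.2 and 17.0 FPKM), the motor that pushes spindle poles apart, and Kif15 (4.46 and 7.67 FPKM), which can share that work, had log2 ratios of 0.68 and 0.67. Kif4, a chromosome-bound motor that works with condensin and with Prc1, had the highest ratio of the group at 4.86 and 8.65 FPKM, a fold of 1.78 (1.589 to 1.996). The motors of the spindle midzone stood at 9.62 and 14.8 FPKM (Kif23), 5.93 and 8.77 FPKM (Kif20a) and 4.50 and 7.52 FPKM (Kif20b). Kif22, which pushes chromosome arms outward, was at 10.03 and 12.7 FPKM. Kif2c, which depolymerises microtubules at centromeres, was lowest at 5.02 and 5.74 FPKM, a fold of 1.14 (0.972 to 1.35).

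Condensin I and topoisomerase II shape mitotic chromosomes, and this group had a median of 0.67, with 4 of 6 genes at least 1.5-fold higher. Its first rank among the medians did not hold by the mean, 0.63 against 0.66 for the transcription factors with Ki-67, nor with a pseudocount of 5 FPKM, 0.48 against 0.54. Top2a, the topoisomerase that untangles sister chromatids, was the most abundant of the 57 genes, at 40.1 FPKM in wild type cells and 76.0 FPKM in the knockout, a fold of 1.90 (1.83 to 1.97). The ATPase subunits that both condensin complexes share stood at 7.71 and 12.6 FPKM (Smc2) and 18.9 and 31.9 FPKM (Smc4), and their ratio hardly differed, with Smc4 to Smc2 at 2.45 and 2.54. The subunits that belong to condensin I alone were less even. Ncapg was at 6.84 and 11.7 FPKM, Ncapd2 at 20.05 and 28.7 FPKM, and the kleisin Ncaph was lowest at 9.37 and 11.6 FPKM, a fold of 1.24 (1.104 to 1.401). The Ncapg to Ncaph ratio was 0.731 and 1.01. The 3 condensin II subunits, which are no members, were at 6.47 and 8.76 FPKM (Ncapd3), 23.8 and 26.6 FPKM (Ncaph2) and 5.31 and 7.41 FPKM (Ncapg2).

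Spindle and cytokinesis proteins were the most even of the groups with more than 3 genes. Their 8 log2 ratios ran from 0.52 to 0.72, with a median of 0.63, and 7 were at least 1.5-fold higher. Anln, the actin-binding protein anillin of the cleavage furrow, was highest at 4.14 and 7.46 FPKM, a fold of 1.803 (1.59 to 2.05). Racgap1 (13.3 and 21.3 FPKM) and Ect2 (7.70 and 12.7 FPKM), which act in cytokinesis, and the microtubule bundler Prc1 (11.99 and 19.1 FPKM) were close to each other in ratio, at 0.64, 0.65 and 0.63. The spindle assembly factor Tpx2 stood at 7.56 and 12.2 FPKM, Nusap1, which bundles microtubules near chromosomes, at 7.08 and 11.9 FPKM, and Hmmr, a spindle pole protein and hyaluronan receptor, at 5.02 and 8.10 FPKM. Aspm, which focuses spindle poles, had the lowest log2 ratio and the lowest level, 2.14 and 3.51 FPKM, and its plain fold was 1.64 (1.45 to 1.86), since adding 1 FPKM shrinks the ratio of low genes.

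Genes of anaphase held the one exception. Pttg1 encodes securin, the protein that blocks separase until the anaphase-promoting complex destroys it (ENSMUSG00000020415, chromosome 11 from 43420250 to 43426251 on GRCm38). Its level was 24.9 FPKM in wild type cells and 18.5 FPKM in the knockout, on 783 and 667 fragments. That is a 1.34-fold lower level (1.21 to 1.49). Its log2 ratio of -0.41 lay between -0.61 and -0.36 under the 4 other scalings. None of these raises log2 ratios by more than 0.049, so none could bring it to 0. Espl1, separase itself, was higher at 3.02 and 4.63 FPKM, so that the securin to separase transcript ratio was 8.24 in wild type cells and 4.01 in the knockout. The other genes of the group had ratios above 0. Ube2c, the ubiquitin-conjugating enzyme of the complex, was highest at 30.5 and 51.4 FPKM, a fold of 1.68 (1.57 to 1.803), followed by its activator Cdc20 at 17.7 and 27.3 FPKM. Cdca3, which promotes mitotic entry, stood at 20.9 and 29.1 FPKM.

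Foxm1, a transcription factor that activates many mitosis genes, was at 6.46 and 12.8 FPKM, a fold of 1.99 (1.798 to 2.197) and the third largest log2 ratio of the 57. Mybl2, the B-Myb factor that brings Foxm1 to CHR promoters, had the lowest ratio of its group at 5.17 and 7.53 FPKM, a fold of 1.46 (1.28 to 1.67). Mki67, which encodes Ki-67, the protein stained to count cycling cells, was at 23.1 and 35.7 FPKM.

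Between the role groups the medians ran from 0.43 for kinetochore and checkpoint genes over 0.60 for kinesins and 0.61 for kinases and cyclins to 0.67 for condensin I and topoisomerase. The ranges overlapped: 0.07 to 0.68, 0.16 to 0.72, 0.28 to 0.97 and 0.29 to 0.91. No difference between groups could be tested with these libraries.

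**Figure D4:**
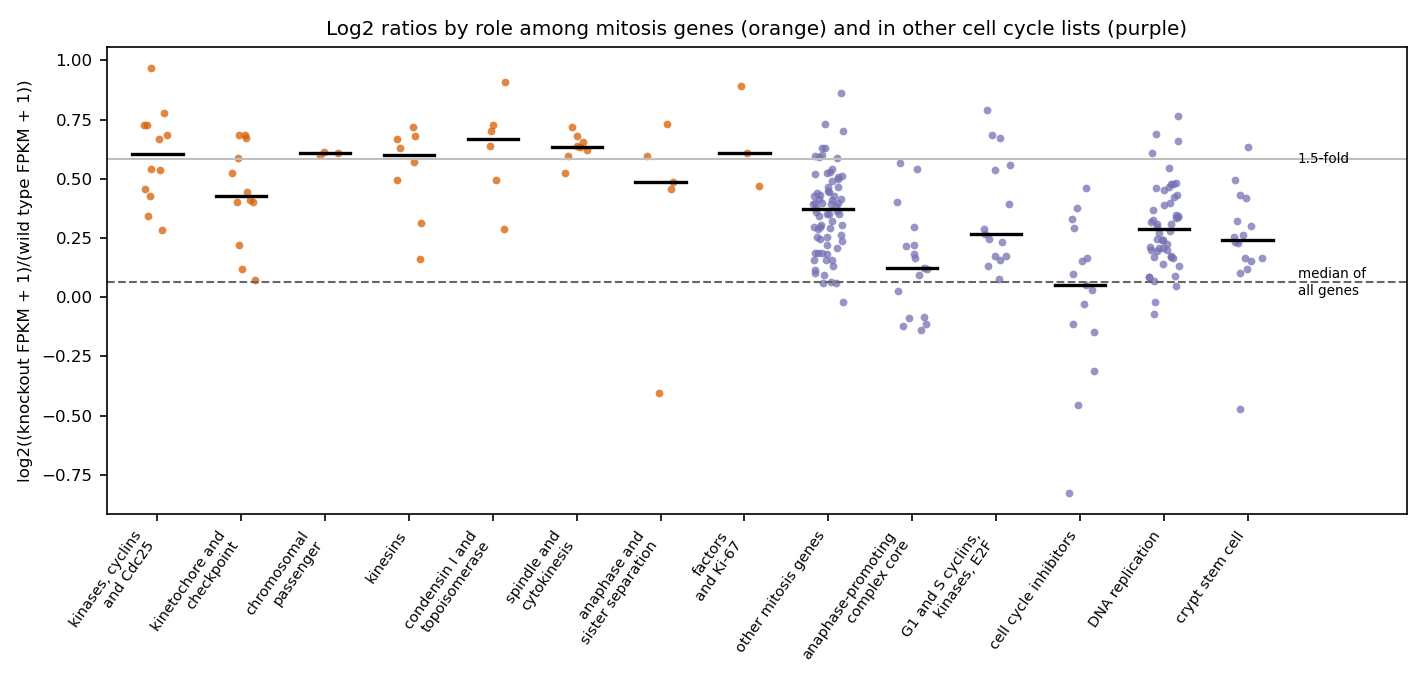
Log2 ratio of knockout over wild type FPKM, with 1 FPKM added to each (vertical), by role group of the mitosis genes (orange) and for other cell cycle lists (purple), with 1 point per gene and a bar at the median. The dashed line is the median of all genes, 0.06, and the grey line 1.5-fold, around which most orange medians lie, above those of the purple lists.

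Other genes of the cell cycle were compared with the members side by side, without a test. Of 70 further mitosis genes listed in the files, 69 were above 0 in log2 ratio, 9 of these reached 1.5-fold, and the median was 0.37. The largest ratios were those of the kinase Melk (6.83 and 13.2 FPKM), the abscission protein Cep55 (4.92 and 8.84 FPKM) and the kinetochore scaffold Casc5 (3.60 and 6.49 FPKM). The smallest were those of Hjurp (85.8 and 84.5 FPKM), the chaperone of the centromeric histone, Cenpb (39.5 and 41.2 FPKM), which binds centromeric DNA, and the checkpoint protein Zwilch (9.52 and 9.98 FPKM). Core subunits and partners of the anaphase-promoting complex, many of them used throughout the cell cycle, had a median of 0.12 over 17 genes, with 12 above 0 and none at 1.5-fold with 1 FPKM added. Cdc27 (8.49 and 13.0 FPKM), Fbxo5 (5.57 and 8.57 FPKM), an inhibitor of the complex, and Ube2s (47.3 and 62.9 FPKM) were its highest genes, while Anapc2 (27.9 and 25.2 FPKM), Cdc16 (19.3 and 17.7 FPKM) and Anapc10 (2.69 and 2.41 FPKM) were lowest.

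Earlier cell cycle genes had smaller ratios. The 50 DNA replication genes had a median of 0.29, with 48 above 0 and 4 at least 1.5-fold higher, and the summed level of the mitosis genes over that of the replication genes was 0.832 in wild type cells and 1.03 in the knockout. Fen1 (12.7 and 22.2 FPKM), Dbf4 (9.48 and 15.9 FPKM), the activator of the kinase Cdc7, and Cdc45 (6.36 and 10.6 FPKM) were highest, and Chaf1b (9.53 and 9.02 FPKM), Gins2 (17.8 and 17.5 FPKM) and Prim1 (11.5 and 11.9 FPKM) lowest. Cyclins, kinases and transcription factors of G1 and S phase had a median of 0.27, with 15 of 15 measured genes above 0 and 3 at least 1.5-fold higher: cyclin D1, Ccnd1 (43.2 and 75.4 FPKM), the factor E2f2 (4.19 and 7.35 FPKM) and Myc (13.0 and 21.3 FPKM). Their lowest ratios were those of Cdc25a (18.8 and 19.8 FPKM), Cdk2 (13.7 and 15.1 FPKM) and E2f1 (4.32 and 4.93 FPKM). Genes of the complex that acts at CHR promoters, with the E2F partners Tfdp1 and Tfdp2 and the NF-Y genes, had a median of 0.26. Of these 10 genes, none of them an E2F gene, 9 were above 0 and none reached 1.5-fold. Tfdp2 (9.30 and 12.7 FPKM), Tfdp1 (38.9 and 51.0 FPKM) and Lin9 (3.73 and 4.86 FPKM) were highest there and Lin37 (7.46 and 6.52 FPKM), Lin52 (4.32 and 4.46 FPKM) and Nfyb (12.55 and 13.6 FPKM) lowest.

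Inhibitors of the cycle, listed together with the factors E2f4 and E2f5, were divided in direction. Over 15 measured genes the median was 0.05, with 9 above 0. Cdkn2b, an inhibitor of the cyclin D kinases, was 1.84-fold lower in the knockout library (1.61 to 2.11) at 21.6 and 11.7 FPKM. The antiproliferative gene Btg2 (31.1 and 22.4 FPKM) and Wee1 (7.46 and 5.82 FPKM), the kinase that holds Cdk1 inactive, were lower too. The pocket protein Rbl1 (14.02 and 19.7 FPKM), itself a cell cycle gene, Cdkn2c (4.9998 and 6.79 FPKM) and Cdkn1c (2.89 and 3.89 FPKM) had the highest ratios.

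Markers of other cells and of cell position differed between the libraries as well. Crypt stem cell genes had a median of 0.24, with 15 of 16 above 0 and 1 at least 1.5-fold higher, Cd44 (26.2 and 41.3 FPKM), and Prom1 (121 and 87.1 FPKM) was the exception. Of 20 genes of differentiated colonocytes, 14 were at least 1.5-fold lower, with a median of -0.82. Car4 (275 and 53.0 FPKM), Aqp8 (67.3 and 12.7 FPKM) and Slc9a3 (59.1 and 11.9 FPKM) had the lowest ratios. Only Scnn1a (17.0 and 18.3 FPKM), Vil1 (237 and 251 FPKM) and Krt20 (331 and 333 FPKM) were above 0, each by little. The sum of the mitosis genes over the sum of these 20 genes was 0.0645 in wild type cells and 0.156 in the knockout. Of the sums of the 20 genes, 10079 and 6356 FPKM, Car1 alone held 4369 and 2701 FPKM. All 11 measured T cell markers of 14 were at least 1.5-fold higher, their 14 levels summed to 28.0 and 114 FPKM, and none was at 0. General leukocyte markers, 5 of 5 at least 1.5-fold higher, summed to 19.1 and 50.4 FPKM, with Ptprc at 5.94 and 16.1 FPKM. B and plasma cell markers summed to 10.004 and 34.9 FPKM, with 3 of 4 measured genes at least 1.5-fold higher and Mzb1 at 0 in the wild type library. Macrophage and dendritic cell markers summed to 36.6 and 42.5 FPKM, with 4 of 9 measured genes higher by that size and 3 below 0 in log2 ratio. Most of both sums was Cd14, at 26.7 and 24.1 FPKM, while Fcer1g was at 0.804 and 4.22 FPKM and Itgax at 0.355 and 1.71 FPKM. Of 6 neutrophil markers 2 were listed, Ly6g at 25.4 and 13.1 FPKM and Csf3r near 0, at 0.0144 and 0.0531 FPKM. S100a8, S100a9, Retnlg and Mpo were listed in neither library, so Ly6g alone is no measure of neutrophils here. Endothelial markers were near 0 in both, at sums of 0.427 and 0.387 FPKM. Cdh5 was at 0 in the wild type and Cldn5 at 0 in the knockout library. Fibroblast markers summed to 11.1 FPKM in each, but their directions were opposed. Vim was higher in the knockout library, at 6.80 and 9.76 FPKM, while Dcn was lower, at 2.65 and 0.870 FPKM. Col1a1, Col1a2, Col3a1 and Pdgfra, each with a mean below 1 FPKM, were lower too, with Pdgfra listed at 0 in the knockout library. Lymphocytes divide too, and the part of these cells and of the colonocyte difference in the mitosis gene levels was not tested.

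Some members share sequence or position with other genes, and the sources used here do not say how the counting treated this or whether it used strand. Of the 31-base words of the longest transcript, 46.9% in Ccnb1, 27.4% in Cdc20, 25.3% in Mybl2, 15.2% in Plk1 and 10.4% in Plk4 also occurred in transcripts of other genes (for Ccnb1 most of all in Ccnb1-ps, for Plk1 in Plk-ps1), so these 5 levels are uncertain. On the opposite strand, exons of another gene with a mean of at least 1 FPKM covered 29.3% of the exon bases of Kif20a (Cdc23), 15.1% of Kif4 (Pdzd11), 13.4% of Ncapg (Lcorl), 12.49% of Ccna2 (Exosc9) and 11.1% of Prc1 (Rccd1). For Pttg1 no exon base was overlapped and 0.669% of its words were shared.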

How the data were processed

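Each of the 2 libraries came as 1 file without a header, with a symbol, a value, an Ensembl gene ID and a locus per row. The deposited values are read as FPKM, a unit inferred from the values and from Cufflinks 2.2.1 in the submitters' processing notes, which also name Bowtie2 2.2.9, TopHat2 2.1.1, Cuffdiff 1.3.0 and 2.2.1, and mm8. The loci fit another build: 99.9% of the IDs found in GENCODE M21 overlapped their gene on GRCm38, which is used here. Values sharing a symbol were summed, and missing genes were given 0.

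Ratios used a pseudocount of 1 FPKM, and genes were counted when their mean was at least 1 FPKM, at 1.5-fold and 2-fold. The worth of 1 fragment was the mode of FPKM times kilobases, between 0.02 and 0.1, in genes with a single transcript over 1.5 kb. This step gave the depth, and with the longest annotated transcript the fragments behind each interval, which are approximate. The depth and interval steps were tested on simulated data. Alternatives were pseudocounts of 0.1 and 5, no filter and a mean of at least 5 FPKM, 4 rescalings of the knockout library, and means in place of medians. All members are named. The highest and lowest log2 ratio of each role group are given with their interval, and other lists by their 3 highest and 3 lowest genes or by counts and sums. The members and lists were chosen with earlier results of these data known. Python 3.11.15, pandas 2.3.3, numpy 2.4.6, scipy 1.17.1 and matplotlib 3.10.9 were used.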

Additional observations from a re-analysis of the deposited data

How the results depend on the processing

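Of 89 recomputed counts and medians, 71 stayed close to the main value and 18 moved further, and no median changed sign. Close means counts within 1.5 times and medians within the typical half-width of a member's counting interval, 0.15 on the log2 scale. Some of these outcomes were fixed in advance. All members averaged at least 1 FPKM, so leaving out the filter returned the same member values. Equal medians, equal upper quartiles and equal sums without genes of the mitochondrial genome have log2 factors of -0.084, -0.066 and 0.049. These are too small to move a median by 0.15, so the 71 is no measure of robustness. The median over all mitosis genes ranged from 0.40 to 0.66. It was 0.44 with a pseudocount of 5 FPKM and 0.40 with equal sums of the epithelial markers. The number of mitosis genes at least 1.5-fold higher, 32 as reported, was 19 with equal medians, 20 with equal upper quartiles, 3 with equal epithelial sums and 6 with a pseudocount of 5 FPKM. With that pseudocount the median was 0.48 for condensin I and topoisomerase, 0.44 for kinases and cyclins, 0.41 for kinesins and 0.46 for spindle and cytokinesis proteins. With equal epithelial sums it was 0.47, 0.42, 0.41 and 0.43 for these 4 groups, 0.31 for the anaphase group, 0.41 for the passenger subunits, 0.23 for kinetochore and checkpoint genes and 0.40 for the transcription factors with Ki-67. That rescaling multiplies the knockout library by 0.863, and a larger pseudocount shrinks all ratios. No paired analysis was possible because each genotype had 1 library, and for the same reason none could be left out. Members with few fragments, such as Cdc25c with 111 and 177, have the widest intervals.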

Other observations

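Hjurp, singled out after its values were seen, stood at 85.8 and 84.5 FPKM, while Cenpa, the histone that its protein deposits, was at 21.5 and 29.5 FPKM. Shared sequence and exon overlap were examined for the 57 members only, so the Hjurp level was not checked for either. Among the further mitosis genes only Kpna2 was more abundant than Hjurp, at 100.4 and 152 FPKM.

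Partner genes, paired after their levels were known, kept their proportions unequally between the libraries. Kif23 to Racgap1, the 2 parts of the centralspindlin complex, was 0.722 in wild type cells and 0.694 in the knockout, and Cdc20 to Ube2c was 0.580 and 0.531. Foxm1 to Mybl2 was 1.25 and 1.70, and Pttg1 to Cdc20 was 1.41 and 0.680.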
